A study of Mus musculus with 16 samples.

Results

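The 10 genes read here code for secreted growth factors that are linked to tissue repair. They are among 20200 genes counted in sorted myeloid cells of the mouse knee after anterior cruciate ligament reconstruction (ACLR). Other growth factor genes are also among those counted. The 10 were taken as a list of names, drawn up when earlier results of these data were known. They are Igf1, Gas6, Pdgfa, Pdgfb, Pdgfc, Vegfa, Tgfb1, Areg, Ereg and Hbegf. In ACLR a tendon graft is placed in a tunnel drilled through bone, and fibrovascular interface tissue forms between graft and bone. The cells were sorted from a harvest of this tissue. According to the paper, the harvest also took in a thin layer of the bone beneath, and the soft and bony parts could not be split. The study compared myeloid populations early in inflammation and late in healing, with 8 groups of 2 libraries, 16 libraries in all. The mice were adult C57BL/6 animals, with WT in the labels of day 1 and W in those of day 14. All of the mice had surgery, and no group came from unoperated tissue. All cells were sorted as live, CD45+ and free of the lineage markers of T, B, NK, red and progenitor cells. CD9+ macrophages were Ly6G-, CD11b+, F4/80+ and CD9+. CX3CR1+ macrophages were F4/80+ and CX3CR1+ without CD9, so the few cells with both markers fell in the CD9+ gate. F4/80- myeloid cells were CD11b+ cells without F4/80 and Ly6G, and neutrophils were Ly6G+ and Ly6C+. Each population was sorted on day 1 and on day 14, and each library was a pool of several mice, so the spread between libraries is one between pools. Different mice gave the 2 days.

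As background, macrophages and neutrophils at a wound release ligands that act on the neighbouring fibroblasts, vessels and bone cells. Igf1 codes for insulin-like growth factor 1, which drives growth and matrix production through the receptor Igf1r, and Gas6 for the bridging ligand that lets the receptors Axl, Mertk and Tyro3 recognise dying cells. Pdgfa, Pdgfb and Pdgfc code for chains of platelet-derived growth factor, the main mitogen of fibroblasts and pericytes, and Vegfa for the factor that makes vessels sprout and that hypoxia induces. Tgfb1 codes for a latent cytokine that, once released from its propeptide, makes fibroblasts deposit collagen, and Areg, Ereg and Hbegf code for ligands of the epidermal growth factor (EGF) receptor that are shed from the cell surface by proteases.

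The values are counts of reads in exons, given here as CPM, the counts scaled to a common library total with edgeR's TMM factors. Totals lay between 10587857 and 19814119 counts on day 1 and between 9233952 and 12721779 on day 14, so a floor of 3 counts stood for 0.131 to 0.316 CPM on day 1 and 0.217 to 0.360 CPM on day 14. The replicates of CD9+ macrophages on day 1 were the least alike, with r = 0.935 over genes against 0.976 to 0.988 in the other 7 groups. The test was the quasi-likelihood test of edgeR, fitted over all 16 libraries on 11998 genes, those with a mean of 3 CPM or more in 1 or more of the groups. Here a change or difference is said to be called where the Benjamini-Hochberg adjusted p lay below 0.05 and the log2 fold change was 1 or more in size. Of the 10 members, 8 passed this filter, and Ereg and Hbegf did not. Vegfa and Tgfb1 passed it in 8 of 8 groups, but Igf1, Gas6 and Pdgfc passed it through CD9+ macrophages of day 14 alone, so any count of calls that involves this group was bound to include such genes. The transcripts for the sort markers followed the gates for the most part. Cd9 stood at 142 to 183 CPM in the CD9+ libraries and at 6.48 to 21.0 CPM in the CX3CR1+ libraries, but also at 107 to 121 CPM in F4/80- cells and at 345 to 676 CPM in neutrophils, whose gates did not use it. Adgre1, which codes for F4/80, had group means of 139 to 180 CPM in the macrophages, against 11.1 CPM or less in F4/80- cells. In neutrophils its means were 42.3 CPM on day 1 and 22.0 CPM on day 14. Ly6g had means of 103 and 276 CPM in neutrophils, against 9.14 CPM or less elsewhere. Cx3cr1 was highest in the CX3CR1+ libraries of day 14, at 252 to 292 CPM, yet it was also present at 72.7 to 107 CPM in the CD9+ libraries.

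**Figure D1:**
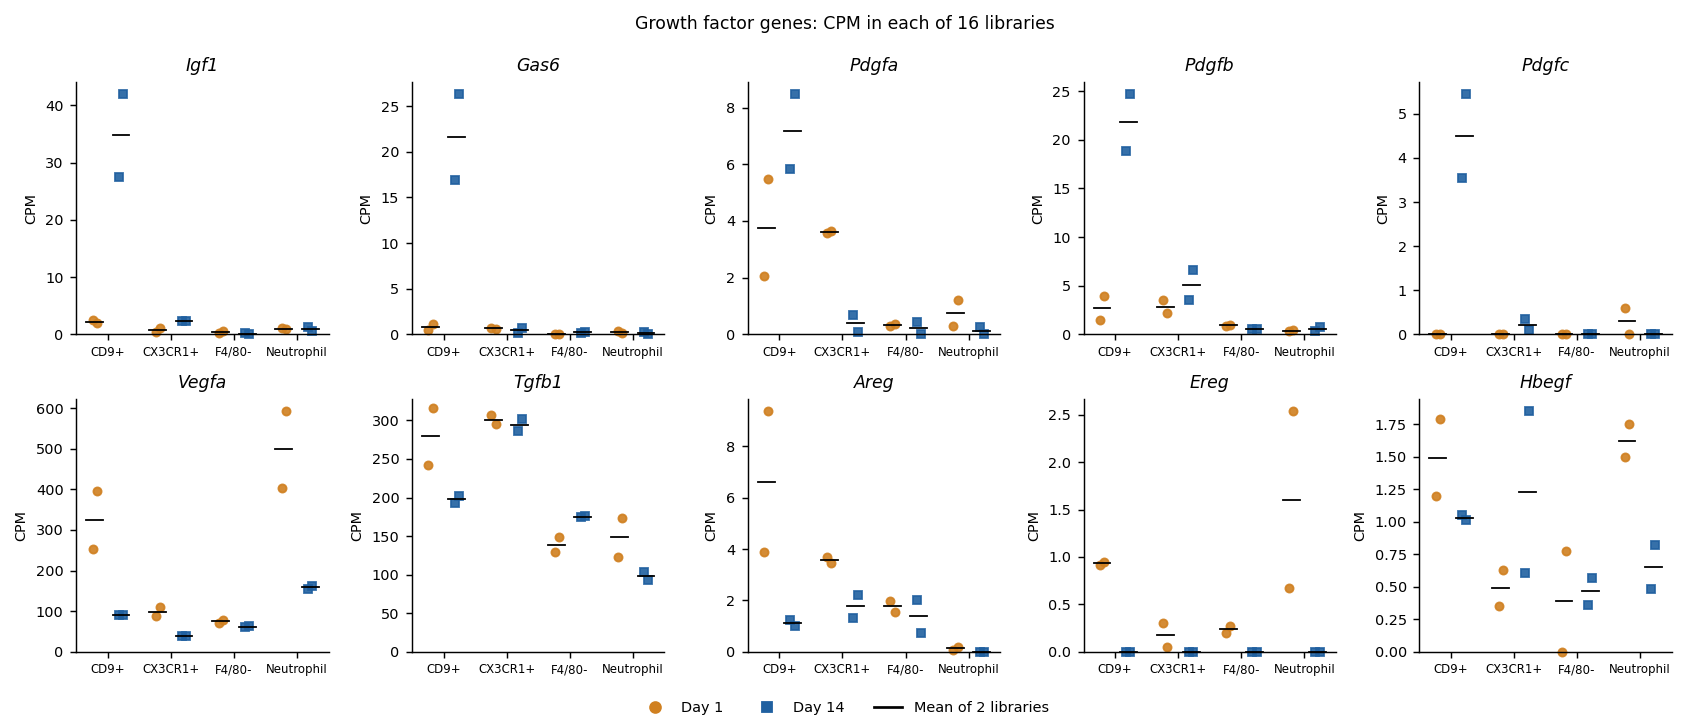
CPM (vertical axes, linear, from 0) of the 10 growth factor genes in each of the 16 libraries, by sorted population, with day 1 as circles, day 14 as squares and the mean of 2 libraries as a line. Igf1, Gas6, Pdgfb and Pdgfc stand highest in the CD9+ libraries of day 14, Vegfa in the neutrophils of day 1, and Ereg is at 0 in every library of day 14.

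In build mm10 the gene models lie at chr10:87858265-87937042 (Igf1, plus strand), chr8:13465374-13494490 (Gas6, minus), chr5:138976014-138997370 (Pdgfa, minus), chr15:79995874-80014977 (Pdgfb, minus) and chr3:81036416-81214040 (Pdgfc, plus). Vegfa lies at chr17:46016993-46032369 (minus), Tgfb1 at chr7:25687002-25705077 (plus), Areg at chr5:91139599-91148432 (plus) and Ereg at chr5:91074622-91093646 (plus), and the position of Hbegf is not given here. No upstream window outside annotated exons was available for Igf1, Pdgfa, Pdgfb and Ereg, so Igf1 and Pdgfb, which also rose, could not be read. The window of Tgfb1, which changed little, held none of the 6 motifs searched and is not shown. The upstream sequences of 4 members are shown: Pdgfc and Gas6, which rose in CD9+ macrophages, and Vegfa and Areg, which fell there. Each is the 250 bases before a RefSeq transcription start, read 5′ to 3′ on the gene's strand in build GRCm38.p6, and each lies outside annotated exons. Pdgfc covers chr3:81036166-81036415 on the plus strand and Gas6 chr8:13494536-13494785 on the minus strand. Areg covers chr5:91139349-91139598 on the plus strand and Vegfa chr17:46032378-46032627 on the minus strand. Capitals mark matches on either strand to 6 motifs that were searched, namely the hypoxia response element core ACGTG, the cAMP response element TGACGTCA, the AP-1 element TGANTCA, the PU.1 core GAGGAA, the C/EBP element TTGCNNAA and the SMAD core CAGAC.
Pdgfc: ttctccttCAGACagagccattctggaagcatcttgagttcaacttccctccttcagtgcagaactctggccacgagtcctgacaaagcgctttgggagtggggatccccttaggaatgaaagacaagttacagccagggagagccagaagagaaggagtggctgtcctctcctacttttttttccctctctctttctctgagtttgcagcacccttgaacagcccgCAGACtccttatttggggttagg
Gas6: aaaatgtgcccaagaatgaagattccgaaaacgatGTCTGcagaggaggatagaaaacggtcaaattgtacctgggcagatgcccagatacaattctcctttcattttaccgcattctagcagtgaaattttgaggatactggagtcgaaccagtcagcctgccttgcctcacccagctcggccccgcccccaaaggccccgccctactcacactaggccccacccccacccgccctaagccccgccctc
Areg: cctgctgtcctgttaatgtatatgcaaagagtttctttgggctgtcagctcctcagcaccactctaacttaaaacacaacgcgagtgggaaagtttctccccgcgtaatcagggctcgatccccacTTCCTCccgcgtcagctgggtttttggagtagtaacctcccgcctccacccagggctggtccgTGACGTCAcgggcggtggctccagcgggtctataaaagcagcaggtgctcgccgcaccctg
Vegfa: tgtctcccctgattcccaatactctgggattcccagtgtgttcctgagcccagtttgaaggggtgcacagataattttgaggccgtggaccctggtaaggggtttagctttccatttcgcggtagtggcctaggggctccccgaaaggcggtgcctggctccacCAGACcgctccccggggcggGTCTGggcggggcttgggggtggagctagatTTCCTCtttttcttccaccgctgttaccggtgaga

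Pdgfc holds the SMAD core at -242 and -23 from the start and Gas6 holds it at -215, so the only letters these 2 windows share among the 6 motifs are those of a motif found in 42.2% of all 32851 promoter windows of this length. Areg holds a full cAMP response element at -61, the palindrome bound by CREB, which occurs in 1.55% of windows, and a PU.1 core at -124, which occurs in 23.3%. Vegfa holds the PU.1 core at -35 and the SMAD core at -86 and -66. None of the 4 windows holds ACGTG (16.6% of windows), TGANTCA (6.75%) or TTGCNNAA (9.56%), which says only that these letters are not in these bases. A match to so short a motif is a description of the sequence and not a binding site.

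The libraries were also read for markers of other cells that a myeloid gate could hold, since these move with several of the results. The 8 eosinophil genes, among them the granule genes Prg2 and Epx, summed to 647 to 658 CPM in the CD9+ libraries of day 1 and to 7052 to 11428 CPM in those of day 14. In the other 12 libraries the same sum was 34.4 to 128 CPM. The 10 macrophage genes summed to 2321 to 3028 CPM in the CD9+ libraries of day 1 and to 1374 to 2088 CPM in those of day 14, so they were lower late, where the eosinophil genes were higher and exceeded them. In the CX3CR1+ libraries they summed to 3714 to 3957 CPM on day 1 and 3127 to 3400 CPM on day 14. The 6 osteoclast genes rose in sum from between 116 and 210 CPM to between 256 and 284 CPM in CD9+ macrophages and stayed at or under 29.8 CPM in the other populations. Of the 10 fibroblast genes, 6 were at 0 in the CD9+ libraries of day 1. The sum of the 10 went from between 8.74 and 9.80 CPM to between 41.8 and 58.0 CPM in CD9+ macrophages. It stood at 6.51 and 95.9 CPM in the 2 CX3CR1+ libraries of day 14. In neutrophils it was 30.8 to 84.5 CPM on day 1 and 54.0 to 54.1 CPM on day 14, and in F4/80- cells 5.87 to 24.1 CPM. The 11 platelet genes, which matter because platelets carry stored growth factors, summed to 164 and 235 CPM in CD9+ macrophages on day 1 and to at most 101 CPM on day 14, with Pf4 at a mean of 120 and 36.1 CPM. Itga2b alone of these genes went the other way, from a mean of 28.8 to 56.4 CPM, and was the highest of them on day 14. It also stood at means of 68.4 and 75.1 CPM in F4/80- cells. Neutrophil genes summed to 12469 and 4254 CPM in the 2 CD9+ libraries of day 1, to 8850 and 13100 CPM in those of day 14, to 21949 to 27833 CPM in F4/80- cells and to 46151 to 91992 CPM in the neutrophils. The part of these cells in the differences below was not tested.

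**Figure D2:**
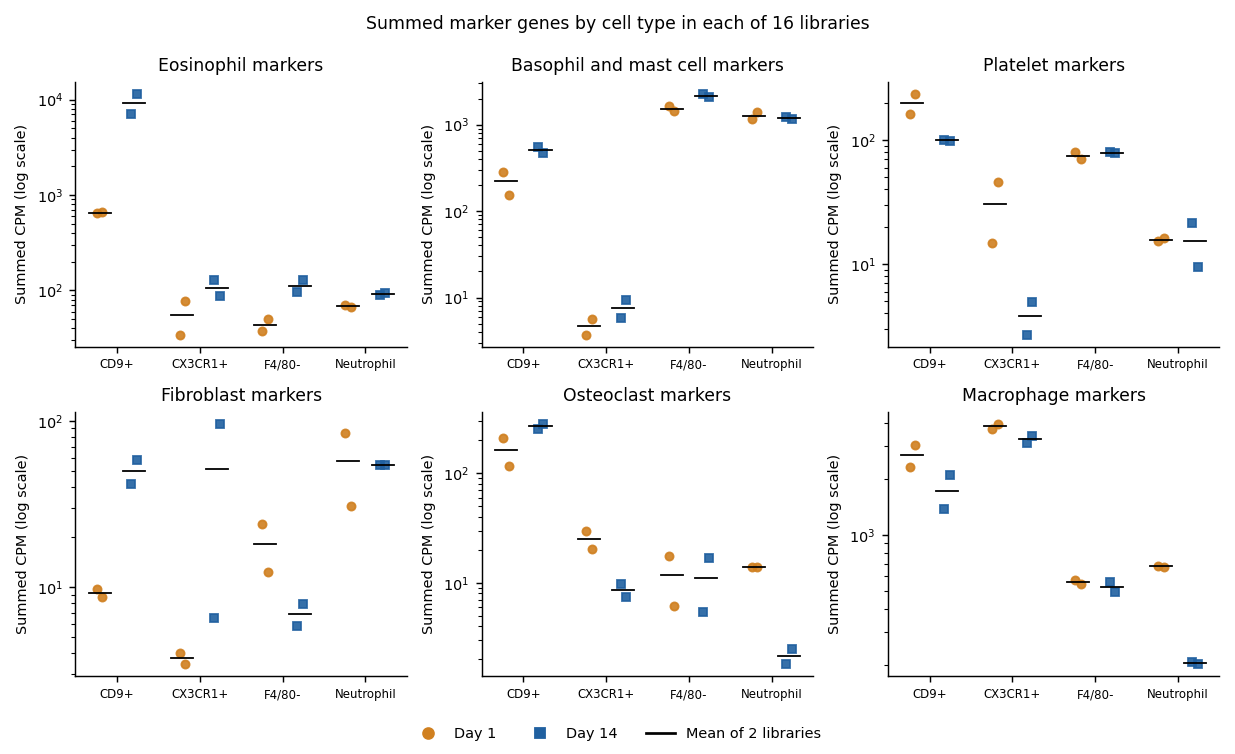
Summed CPM (vertical axes, log scale) of marker genes for 6 cell types in each of the 16 libraries, by sorted population, with day 1 as circles, day 14 as squares and the mean of 2 libraries as a line. The eosinophil sum reaches 7052 to 11428 CPM in the CD9+ libraries of day 14 and lies at or under 658 CPM in every other library.

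Igf1 rose steeply in CD9+ macrophages over the 2 weeks of healing and was little seen elsewhere. The CD9+ libraries of day 1 held 36 and 18 counts (2.54 and 1.89 CPM) and those of day 14 held 288 and 416 (27.6 and 42.0 CPM), without overlap. This is a 15.5-fold rise (log2 3.95 ± 0.55 SE, adjusted p = 2.6e-04, edgeR, n = 2 in each group). In bulk libraries more cells of a type and more RNA in each cell cannot be told apart. In CX3CR1+ macrophages 7 and 22 counts became 26 and 25, a difference that did not reach the threshold (log2 1.68 ± 0.60, adjusted p = 0.0823). DESeq2 called this same difference at an adjusted p of 0.0320, and leaving out the second CX3CR1+ library of day 1 also brought it to 0.0367. Neutrophils went from 14 and 10 counts to 10 and 5, and F4/80- cells from 4 and 12 to 2 and 0. On day 14 Igf1 was 15.2-fold higher in CD9+ than in CX3CR1+ macrophages (log2 3.92 ± 0.55, adjusted p = 7.3e-05) and 41.0-fold higher than in neutrophils (log2 5.36 ± 0.63, adjusted p = 2.4e-06). Against F4/80- cells, with 2 counts in all, the ratio of counts was 451, with an exact 95% counting interval from 124 to 3734. On day 1 the CD9+ level was above that of F4/80- cells (log2 2.55 ± 0.64, adjusted p = 0.0076, but 0.0823 without the first F4/80- library), but the difference from CX3CR1+ macrophages (log2 1.64 ± 0.59) was not called, at an adjusted p of 0.0750. The order of the groups put CD9+ day 14 clearly first at a mean of 34.8 ± 10.2 CPM (SD), then CX3CR1+ day 14 at 2.29 ± 0.04 and CD9+ day 1 at 2.22 ± 0.45, whose libraries overlapped. Over the 8 groups the genes with the pattern most like that of Igf1 were Ear2 (r = 0.94), Dpysl3 (r = 0.94) and Camk1 (r = 0.93), and Ear2 is one of the 8 eosinophil genes above.

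Gas6 was also highest in CD9+ macrophages of day 14 and scarce in the other 7 groups. In CD9+ macrophages 7 and 11 counts on day 1 became 177 and 261, or 0.493 and 1.16 CPM against 16.9 and 26.4 CPM. The rise was 27.0-fold (log2 4.75 ± 0.69, adjusted p = 3.3e-04). In CX3CR1+ macrophages the counts went from 16 and 11 to 2 and 7, a change that was not called (log2 -0.64 ± 0.79, adjusted p = 0.669). The contrast of these 2 changes was itself called, at log2 5.40 ± 1.02 (adjusted p = 0.0095), although it was lost without the second CD9+ library of day 14 (adjusted p = 0.0596) or the first CX3CR1+ library of that day (adjusted p = 0.0643). On day 14 Gas6 was 52.2-fold higher in CD9+ than in CX3CR1+ macrophages (log2 5.71 ± 0.74, adjusted p = 3.5e-05). F4/80- cells of that day had 2 and 3 counts, giving a ratio of 112 (95% counting interval 47.8 to 348), and neutrophils 2 and 0, giving a ratio of 195 (53.5 to 1612). On day 1 both macrophage populations stood above F4/80- cells, which had 1 and 0 counts: the ratio was 32.3 for CD9+ (5.09 to 1344) and 27.3 for CX3CR1+ cells (4.49 to 1117), and both were called (adjusted p = 0.0057 and 0.0054), but neither without the second F4/80- library of day 1 (adjusted p = 0.0561 and 0.0572). The exons of Gas6 overlap those of Tmem255b on the other strand, and the strand setting of the counting is not given in the sources used here. The closest patterns over the 8 groups were those of Folr2 (r = 0.98), a folate receptor known from resident macrophages, AI427809 (r = 0.98) and Dpysl3 (r = 0.98).

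The 3 platelet-derived growth factor chains did not move alike. For Pdgfb, CD9+ macrophages went from 21 and 37 counts to 197 and 245, which is 1.48 and 3.89 CPM against 18.8 and 24.8 CPM. This 8.29-fold rise (log2 3.05 ± 0.49, adjusted p = 7.7e-04) set CD9+ macrophages of day 14 above every other group. CX3CR1+ macrophages came next with 3.47 and 6.57 CPM on day 14 and 3.50 and 2.19 CPM on day 1, values that overlapped (log2 0.81 ± 0.47, adjusted p = 0.297). F4/80- cells and neutrophils held 3 to 21 counts in each library. On day 14 the CD9+ level was 4.34-fold that of CX3CR1+ macrophages (log2 2.12 ± 0.47, adjusted p = 0.0031), and this call was lost without the first CX3CR1+ library (log2 1.73, adjusted p = 0.0544). Both macrophage populations exceeded both other populations on each day, with log2 differences from 1.51 ± 0.52 (CD9+ over F4/80- on day 1, adjusted p = 0.0410, lost under 10 of the alternatives, among them no filter at 0.0522) to 5.29 ± 0.60 (CD9+ over neutrophils on day 14, adjusted p = 1.6e-06). The genes most like Pdgfb over the 8 groups were Zcchc14 (r = 0.98), Smagp (r = 0.97) and Zfpm1 (r = 0.95).

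Pdgfc was a gene of CD9+ macrophages of day 14 in these libraries. It had 0 counts in both CD9+ libraries of day 1 and 37 and 54 counts (3.54 and 5.46 CPM) on day 14, at least 17.1-fold higher when the day 1 group is set at the floor of 3 counts per library. edgeR called it (adjusted p = 0.0096) and DESeq2 did not (adjusted p = 0.354). Elsewhere it was seen in 1 neutrophil library of day 1, with 8 counts, and in the CX3CR1+ libraries of day 14, with 4 and 1 counts, so it was present in 5 of 16 libraries. On day 14 it was higher in CD9+ than in CX3CR1+ macrophages (log2 4.28 ± 1.17, adjusted p = 0.0213), a call that DESeq2 did not make (adjusted p = 0.649). That call was also lost without any 1 of the 4 libraries compared, at adjusted p of 0.0610 to 0.157. F4/80- cells and neutrophils of day 14 had 0 counts, which puts CD9+ macrophages at least 19.5-fold and at least 13.5-fold higher (adjusted p = 0.0091 and 0.0023 with edgeR, 0.415 and 0.239 with DESeq2). The lower level that edgeR called in CX3CR1+ and F4/80- cells against neutrophils on day 1 (adjusted p = 0.0489 and 0.0492) rests on the single neutrophil library with counts, and with the replicate number as a block the values were 0.0562 and 0.0634. Its exons overlap the antisense gene Gm16000. The closest patterns were those of Sorbs3 (r = 0.99), Ch25h (r = 0.98) and Dnm1 (r = 0.98).

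Pdgfa moved in the other macrophage population. In CX3CR1+ macrophages 82 and 70 counts (3.59 and 3.65 CPM) became 8 and 1 (0.695 and 0.0925 CPM), a log2 change of -3.15 ± 0.95 (adjusted p = 0.0413). This call sat at the edge of the threshold and was lost without any 1 of the 4 CX3CR1+ libraries (adjusted p of 0.0707 to 0.294). It was also lost, with the log2 change still at -3.15, without either F4/80- library of day 1 or either CD9+ library of day 14. These are not part of the comparison and enter through the shared spread, the scaling and the adjustment over all genes. CD9+ macrophages went from 29 and 52 counts to 61 and 84, which was not called (log2 0.95 ± 0.78, adjusted p = 0.434). Between the macrophage populations Pdgfa differed by log2 0.04 ± 0.77 on day 1 (adjusted p = 0.987, and turned slightly negative under 4 of the alternatives to the scaling, filter and block) and was 17.5-fold higher in the CD9+ cells on day 14 (log2 4.13 ± 0.96, adjusted p = 0.0046, but 0.0667 without the second CX3CR1+ library). The difference between the 2 changes over time, log2 4.10 ± 1.23, was not called (adjusted p = 0.0957), although DESeq2 called it (adjusted p = 0.0220) and so did edgeR without the second CD9+ library of day 1 (adjusted p = 0.0368). F4/80- cells and neutrophils had at most 14 counts in a library. The antisense gene 6330403L08Rik, whose exons overlap those of Pdgfa, stood at 4.30 to 4.95 CPM in the CD9+ libraries and at means of 3.28 CPM on day 1 and 1.27 CPM on day 14 in the CX3CR1+ libraries, and reads of the pair cannot be told apart unless strand was used. Fblim1 (r = 0.97), Trim47 (r = 0.97) and Tmem37 (r = 0.97) had the most similar patterns.

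Vegfa was an abundant transcript of day 1 and fell in 3 of the 4 populations. Neutrophils of day 1 were highest, with 5404 and 6794 counts (404 and 594 CPM), followed by CD9+ macrophages of day 1 with 3601 and 3767 counts (254 and 397 CPM). By day 14 these had dropped to 154 and 162 CPM and to 89.3 and 90.1 CPM. CX3CR1+ macrophages went from 87.6 and 109 CPM to 38.6 and 39.5 CPM, and F4/80- cells from 71.4 and 78.4 CPM to 59.9 and 63.0 CPM. The change was log2 -1.86 ± 0.20 in CD9+ macrophages (adjusted p = 3.4e-05), -1.66 ± 0.20 in neutrophils (adjusted p = 2.1e-05) and -1.33 ± 0.20 in CX3CR1+ macrophages (adjusted p = 5.3e-04). In F4/80- cells it was -0.28 ± 0.20 and was not called (adjusted p = 0.477). The fall in CD9+ macrophages differed from that in F4/80- cells by log2 -1.57 ± 0.28 (adjusted p = 0.0112, but 0.0546 and 0.0633 without the first F4/80- library of day 1 or of day 14), and not by a called amount from that in CX3CR1+ macrophages (-0.53 ± 0.28, adjusted p = 0.384) or neutrophils (-0.20 ± 0.28, adjusted p = 0.706). CD9+ exceeded CX3CR1+ macrophages on both days, 3.31-fold on day 1 (log2 1.73 ± 0.20, adjusted p = 3.0e-05) and 2.30-fold on day 14 (log2 1.20 ± 0.21, adjusted p = 4.2e-04). Against neutrophils CD9+ macrophages were lower by less than the threshold on the fold, at log2 -0.62 ± 0.19 on day 1 and -0.82 ± 0.20 on day 14 (adjusted p = 0.0108 and 0.0019). The neutrophil genes summed to 12469 and 4254 CPM in these CD9+ libraries of day 1, as given above, and the part of neutrophils in their Vegfa level was not tested.

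Most of the other hypoxia-induced genes tested fell as well in CD9+ macrophages and neutrophils, and fewer in the other populations. Of 13 tested, 9 fell in CD9+ macrophages between day 1 and day 14, where 3.48% of all genes did, with a median log2 change of -1.39 beside 0.00 over all tested genes. They included Hilpda, which coats lipid droplets (log2 -3.41 ± 0.40), the oxygen sensor Egln3 (-3.19 ± 0.24), the glucose transporter Slc2a1 (-2.74 ± 0.27) and the mitophagy gene Bnip3 (-2.40 ± 0.14). Ankrd37, Ero1l, Ndrg1, P4ha1 and Pfkfb3 fell as well, with log2 changes of -2.17, -1.46, -1.39, -1.32 and -1.08. In neutrophils 12 of the 13 fell (median -4.62), beside 10.9% of all genes. In F4/80- cells 6 fell (median -0.65), beside 2.24%, and in CX3CR1+ macrophages 5 (median -0.95), beside 3.47%. On day 1, 7 of the 13 were higher in CD9+ than in CX3CR1+ macrophages, where 6.36% of all genes were, with a median of 1.09 beside 0.04 over all genes, namely Egln3, Hilpda (2.11 ± 0.35), Ero1l (2.07 ± 0.27), Bnip3 (1.55 ± 0.13), Ankrd37 (1.49 ± 0.44), Slc2a1 (1.24 ± 0.25) and Pdk1 (1.09 ± 0.23). On day 14 Egln3 (1.94), Ero1l (1.51) and Ldha (1.02) were higher on the log2 scale, while Ndrg1 was lower (-1.42), beside 9.65% higher and 4.55% lower over all genes. The genes most like Vegfa over the 8 groups were Nek6 (r = 0.97), Clip2 (r = 0.97) and the glycolytic enzyme gene Eno1 (r = 0.97).

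**Figure D3:**
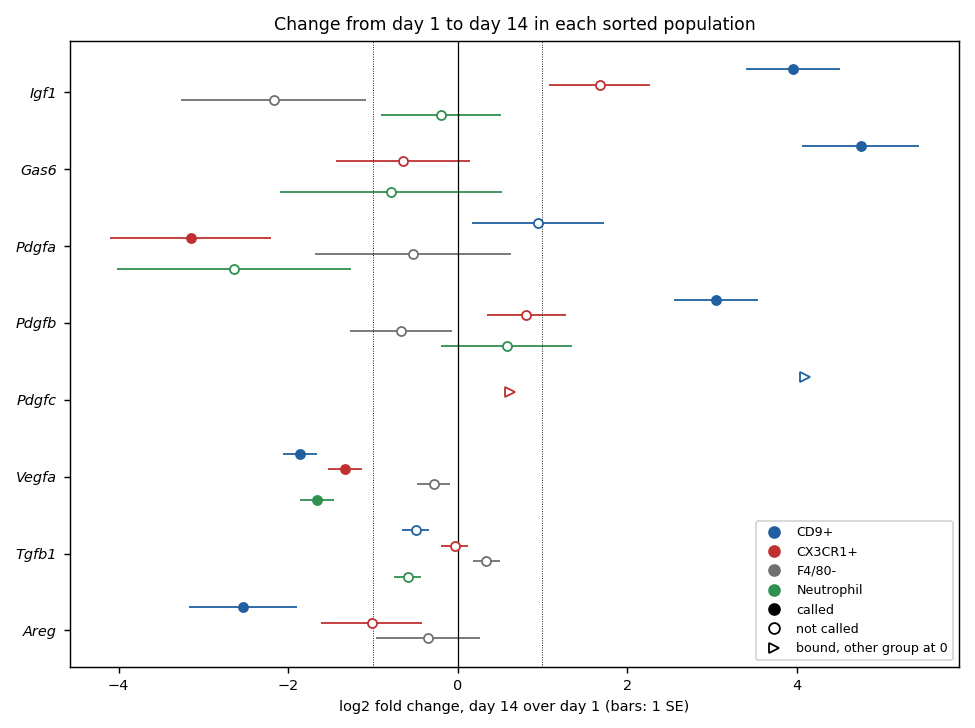
Log2 fold change from day 1 to day 14 (horizontal axis; bars are 1 SE, dotted lines mark an absolute log2 fold change of 1) of the 8 tested growth factor genes in each sorted population, with filled points for called differences and open triangles for bounds where the day 1 group is at 0. Comparisons in which both groups had at most 3 counts per library, or whose bound was 1-fold or less, are not drawn. Igf1, Gas6 and Pdgfb lie to the right in CD9+ macrophages, and Vegfa lies to the left in 3 populations.

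Tgfb1 was high in every group and changed little. CX3CR1+ macrophages had the highest means on both days, overlapping with CD9+ macrophages on day 1, with 7010 and 5664 counts on day 1 (307 and 295 CPM) and 3301 and 3262 on day 14 (287 and 302 CPM), and their change was log2 -0.03 ± 0.16 (adjusted p = 0.928). CD9+ macrophages had 243 and 316 CPM on day 1 and 193 and 203 CPM on day 14, a change of log2 -0.50 ± 0.16 that passed the p threshold (adjusted p = 0.0433) but not the one on the fold. F4/80- cells stood at 129 and 148 CPM and then at 175 and 176 CPM (log2 0.34 ± 0.16, adjusted p = 0.253). Neutrophils went from 123 and 174 CPM, which overlapped with F4/80- cells, to 104 and 93.5 CPM, the lowest level of all groups (log2 -0.59 ± 0.16, adjusted p = 0.0131). Between populations the largest difference was that of CX3CR1+ macrophages over neutrophils on day 14, 2.99-fold (log2 1.58 ± 0.16, adjusted p = 5.9e-07). On day 14 CD9+ macrophages were lower than CX3CR1+ macrophages (log2 -0.57 ± 0.16, adjusted p = 0.0146), under the threshold on the fold. Several other differences of Tgfb1 lay at that threshold, among them CD9+ over F4/80- on day 1 (log2 1.01 ± 0.16) and CD9+ over neutrophils on day 14 (log2 1.01 ± 0.16), and with DESeq2's size factors they were 0.98 and 0.94 and no longer called. Apol7d, Ifi207 and Gm6377 (each r = 0.98) had the pattern most like that of Tgfb1.

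The genes for the release and binding of growth factors, and the targets of transforming growth factor beta, were read as lists. Of 16 tested genes for processing and binding, 1 rose and 4 fell in CD9+ macrophages over time (median -0.56), beside 4.75% and 3.48% of all genes. Thbs1, whose product activates latent transforming growth factor beta, fell (log2 -3.12 ± 0.28), as did the integrin gene Itgb5 (-1.61 ± 0.26), the protease gene Furin (-1.23 ± 0.26) and Igfbp6, a binding protein of insulin-like growth factors (-3.36 ± 0.48). Igfbp4, another such binding protein, rose (1.22 ± 0.20), and it was also higher in CD9+ than in CX3CR1+ macrophages on day 1 (1.67 ± 0.21) and day 14 (2.49 ± 0.22). The urokinase gene Plau was higher in CD9+ macrophages on both days (1.39 ± 0.21 and 1.51 ± 0.22), as was the scarce Igfbp7, which had 0 and 1.20 CPM and then 0.808 and 1.24 CPM in CD9+ macrophages and at most 1 count in a CX3CR1+ library, while Igfbp6 was lower on day 1 (-1.14 ± 0.37). Cd9 itself is on this list and is the gate. Among the targets of transforming growth factor beta, Tgfbi fell in CD9+ macrophages with time (-2.31 ± 0.18). Against CX3CR1+ macrophages, Pmepa1 was higher in CD9+ macrophages on day 1 (1.19 ± 0.36) and day 14 (4.31 ± 0.43), and Bhlhe40 on day 14 (1.47 ± 0.23).

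Of the EGF receptor ligands, Areg was the one with enough counts to be tested. It was highest in CD9+ macrophages of day 1, with 55 and 89 counts (3.88 and 9.37 CPM), and by day 14 they held 13 and 10 (1.24 and 1.01 CPM). The log2 change was -2.53 ± 0.64 (adjusted p = 0.0149). It was lost without the second CD9+ library of day 1 (log2 -1.77, adjusted p = 0.0770) and without either CD9+ library of day 14 (adjusted p = 0.0875 and 0.0959). In CX3CR1+ macrophages 84 and 66 counts became 15 and 24 (log2 -1.01 ± 0.60, adjusted p = 0.314), and F4/80- cells 41 and 34 and then 28 and 9 (log2 -0.35 ± 0.61, adjusted p = 0.819). Neutrophils had 1 and 2 counts early and 0 late. The 3 other populations exceeded them on day 1 by ratios of 50.3 for CD9+ (95% counting interval 16.9 to 247), 29.5 for CX3CR1+ (9.90 to 145) and 14.6 for F4/80- cells (4.81 to 72.4), and on day 14 by at least 3.38-, 5.28- and 4.14-fold. All 6 of these were called, with adjusted p from 3.4e-05 to 0.0014. Basophil and mast cell genes, whose cells are known sources of Areg, summed to 1417 to 2250 CPM in the F4/80- libraries, 155 to 551 CPM in the CD9+ libraries and 3.72 to 9.25 CPM in the CX3CR1+ libraries. In neutrophils, where Areg had 0 to 2 counts, they summed to 1145 to 1390 CPM, and Hdc alone had means of 1263 and 1180 CPM there. The antibodies against progenitor cells included c-kit, which mast cells also carry. The part of basophils and mast cells in the Areg levels was not tested. Caskin2, Etfa and Jagn1 (each r = 0.99) had the most similar patterns.

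Ereg lies on the same chromosome as Areg and on the same strand, with 45952 bases between the genes, and it was a transcript of day 1 alone in these libraries. On day 1 the counts were 13 and 9 in CD9+ macrophages, 7 and 1 in CX3CR1+ macrophages, 4 and 6 in F4/80- cells and 9 and 29 in neutrophils. On day 14 it had 0 counts in all 8 libraries. Neutrophils were thus at least 4.81-fold and CD9+ macrophages at least 3.16-fold lower on day 14, with the floor of 3 counts per library. Ereg did not pass the filter, and without a filter the fall was called in neutrophils (adjusted p = 0.0257) but not in CD9+ macrophages (adjusted p = 0.0593). Its exons overlap the antisense gene Gm19610. Hbegf, the heparin-binding member, had 0 to 20 counts in each library and at most a mean of 1.62 ± 0.18 CPM, in neutrophils of day 1. Without a filter its smallest adjusted p over the 19 comparisons was 0.140, so no difference was detectable at this depth.

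AP-1 and other early response genes, which the signals that induce Areg are known to induce as well, were read beside it. Of 15 tested, 5 fell in CD9+ macrophages with time (median -0.64), beside 3.48% of all genes, namely the feedback inhibitors Errfi1 (log2 -2.35 ± 0.26) and Spry2 (-1.14 ± 0.32), Phlda1 (-1.93 ± 0.22), Ier3 (-1.72 ± 0.26) and the transcription factor gene Egr2 (adjusted p = 0.0077). In neutrophils 10 fell (median -1.33), beside 10.9% of all genes. In CX3CR1+ macrophages 4 fell (median -0.46), beside 3.47%, and in F4/80- cells 1 (median 0.35), beside 2.24%. On day 1 the AP-1 gene Fosl1 (1.37 ± 0.21), Spry2 (1.64 ± 0.32), Phlda1 (1.41 ± 0.20) and Errfi1 (1.29 ± 0.25) were higher in CD9+ than in CX3CR1+ macrophages. On day 14 Fosl1 (2.08 ± 0.23) and Spry2 (2.05 ± 0.38) were higher, while Fos (-1.17 ± 0.15) and Atf3 (-2.03 ± 0.17) were lower.

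Counted over the members, the comparisons read as follows, each against the share of all 11998 tested genes called in the same direction. In CD9+ macrophages over time 4 of the 8 tested members rose (Igf1, Pdgfb, Pdgfc and Gas6), where 4.75% of all genes did, and 2 fell (Vegfa and Areg), where 3.48% did. Scaled by library size alone, these shares of all genes were 6.74% and 2.51%. Of the 4 that rose, 3 had passed the filter only through CD9+ macrophages of day 14. In CX3CR1+ macrophages 2 fell (Pdgfa and Vegfa) beside 3.47% of all genes, or Vegfa alone where the Pdgfa call was lost, and none rose beside 2.39%. In neutrophils Vegfa alone fell beside 10.9%, and none rose beside 3.15%. F4/80- cells had 0 calls by edgeR and by DESeq2, beside 1.01% higher and 2.24% lower over all genes, and 0 of the 8 had an unadjusted p under 0.05, the smallest being 0.0509 for Tgfb1.

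Between the macrophage populations 1 member (Vegfa) was higher in CD9+ cells on day 1, beside 6.36% of all genes, with Igf1 as a second by DESeq2 or without the second CX3CR1+ library, and 6 on day 14 (Igf1, Pdgfa, Pdgfb, Pdgfc, Vegfa and Gas6), beside 9.65%. None was lower on either day, where 1.88% and 4.55% of all genes were. Scaled by library size alone, 5.11% of all genes were higher and 4.18% lower on day 1. The plot of CD9+ against CX3CR1+ macrophages shows this shift for each gene. Tgfb1 and Areg were not called on either day.

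**Figure D4:**
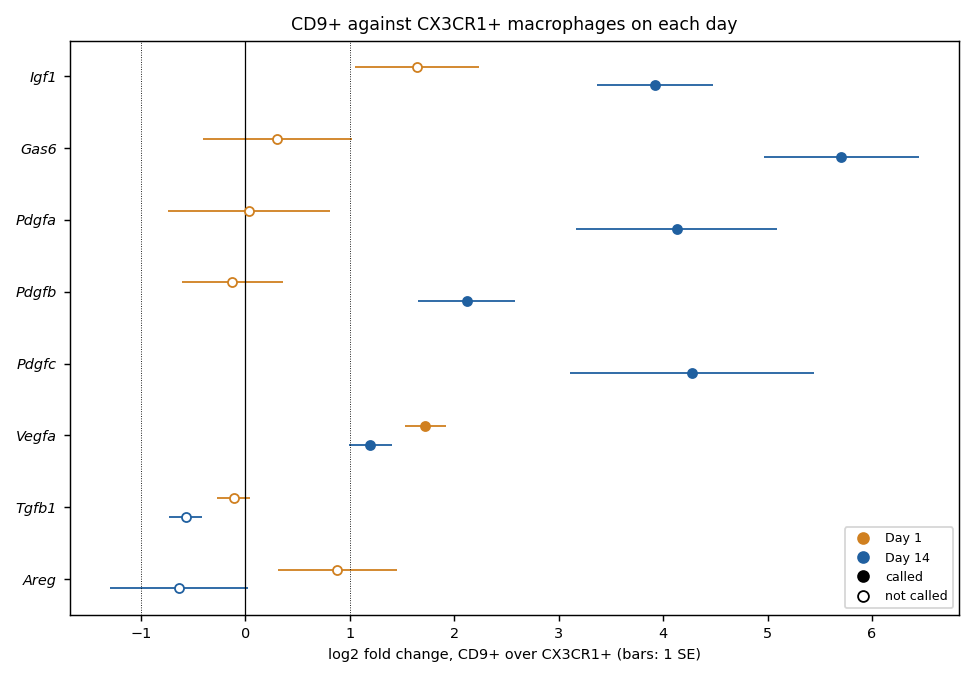
Log2 fold change of CD9+ over CX3CR1+ macrophages (horizontal axis; bars are 1 SE, dotted lines mark an absolute log2 fold change of 1) for the 8 tested growth factor genes on day 1 (orange) and day 14 (blue), with filled points for called differences. Pdgfc has no point on day 1 because both groups are at 0. On day 1 Vegfa alone is called, at 1.73, and on day 14 the called values run from 1.20 for Vegfa to 5.71 for Gas6.

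Against F4/80- cells CD9+ macrophages were higher in 7 members on day 1 (Igf1, Pdgfa, Pdgfb, Vegfa, Tgfb1, Areg and Gas6), beside 9.23% of all genes, and in 5 on day 14 (Igf1, the 3 Pdgf genes and Gas6), beside 6.59%. The share of all genes that were lower was 6.16% and 1.11%. Scaling by library size alone turned the balance over all genes on day 1, to 6.70% higher and 10.3% lower. Without the second F4/80- library of day 14, the 5 calls dropped to 3. The 7 calls of day 1 dropped to 3 without the second CD9+ library of that day, to 2 without the first F4/80- library and to 3 without the second. Against neutrophils CD9+ macrophages were higher in 3 members on day 1 (Pdgfa, Pdgfb and Areg), beside 27.9% higher and 21.7% lower over all genes (33.6% and 15.7% by library size alone). Scaling by library size alone raised this to 6 and by the upper quartile to 5, as did leaving out the first CD9+ or the second neutrophil library of day 1. On day 14 they were higher in 7 (all tested members but Vegfa), beside 29.6% higher and 19.9% lower (39.4% and 11% by library size alone).

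CX3CR1+ macrophages exceeded F4/80- cells in 4 members on day 1 (Pdgfa, Pdgfb, Tgfb1 and Gas6), beside 10.2% higher and 10.9% lower over all genes, and in 2 on day 14 (Igf1 and Pdgfb), beside 11.1% and 10.4%. The 4 calls of day 1 dropped to 2 without the first F4/80- library and to 1 without the second. On day 14 Igf1 had 26 and 25 counts against 2 and 0, a ratio of 29.8 (7.84 to 253). Against neutrophils they were higher in Pdgfa, Pdgfb, Tgfb1 and Areg and lower in Pdgfc and Vegfa on day 1, beside 26.9% higher and 24.1% lower (38.3% and 14.7% by library size alone). Without the first neutrophil library of day 1, the 6 calls dropped to 3. On day 14 they were higher in Pdgfb, Tgfb1 and Areg and lower in Vegfa, beside 27.1% and 20.9% (37.8% and 13.5%). F4/80- cells were higher than neutrophils in Areg and lower in Pdgfc and Vegfa on day 1, beside 26.4% and 22.6% (37.8% and 12.4% by library size alone, 31.8% and 16.7% by the upper quartile). On day 14 they were higher in Areg and lower in Igf1 and Vegfa, beside 27.4% and 21.3% (38.1% and 11% by library size alone). The lower Igf1, 2 and 0 counts against 10 and 5, had a ratio of 0.0924 (0.0103 to 0.397) and an adjusted p of 0.0121, and it was lost without the second F4/80- library (0.0835) or the first neutrophil library (0.104). Vegfa was thus lower than in neutrophils by log2 -2.34 ± 0.20 and -2.02 ± 0.21 in CX3CR1+ macrophages and by -2.74 ± 0.21 and -1.37 ± 0.20 in F4/80- cells, on day 1 and day 14, the last of these being -0.80 and not called when scaled by library size alone. All comparisons with 1 population share that population's libraries.

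The change over time in CD9+ macrophages was also tested against the change in each other population. Against CX3CR1+ macrophages Gas6 was the member called, beside 2.28% of all genes in either direction, that is 161 higher and 112 lower (260 and 55 by library size alone, 183 and 82 by the upper quartile). Igf1 (log2 2.28 ± 0.80, adjusted p = 0.161) and Pdgfb (2.24 ± 0.67, adjusted p = 0.0926) did not pass, so a larger rise in CD9+ macrophages is not shown for them by this test, although Pdgfb was called by DESeq2 (adjusted p = 0.0390) and without the second CD9+ library of day 1 (adjusted p = 0.0162). Against F4/80- cells Igf1 (6.12, adjusted p = 0.0139), Pdgfb (3.72 ± 0.76, adjusted p = 0.0211) and Vegfa were called, beside 1.69%, that is 132 higher and 71 lower (214 and 40 by library size alone). Against neutrophils Igf1 (4.15 ± 0.88, adjusted p = 0.0071), Gas6 (5.54, adjusted p = 0.0273) and Pdgfc (adjusted p = 0.0217) were called, beside 8.03%. The Gas6 call was lost without the first neutrophil library of day 1 (adjusted p = 0.280). Without the second CD9+ library of day 14 the adjusted p of Igf1 was 0.0576 against F4/80- cells and 0.0518 against neutrophils, and that of Pdgfb against F4/80- cells was 0.0850. Pdgfc had an adjusted p of 0.379 with DESeq2. The number of members called ran from 0 to 3, from 0 to 5 and from 0 to 4 in these 3 contrasts as each library was left out in turn.

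Per length of exon, the members ranked differently on the 2 days within CD9+ macrophages. In mean CPM per kilobase, day 1 ran from Vegfa (75.9) and Tgfb1 (55.4) through Areg (5.45), Pdgfa (1.21) and Pdgfb (0.646) to Gas6 (0.324), Hbegf (0.309), Ereg (0.226), Igf1 (0.224) and Pdgfc (0). On day 14 Tgfb1 (39.3) led, followed by Vegfa (20.9), Gas6 (8.50), Pdgfb (5.24), Igf1 (3.51), Pdgfa (2.30), Areg (0.928), Pdgfc (0.884), Hbegf (0.213) and Ereg (0). Gas6, Pdgfb and Igf1 thus passed Pdgfa and Areg in level, while Tgfb1 and Vegfa remained the most abundant of the 10. Over the 8 group means on a log2 scale, Igf1, Gas6, Pdgfb and Pdgfc ran together with r of 0.76 to 0.89, and Tgfb1 and Areg with r = 0.82. Vegfa had r between -0.37 and 0.22 with the other 7 tested members. These r describe 8 points that share libraries and, for the first 4 genes, 1 high group.

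The receptors for these ligands were read in the same libraries, 15 genes with a row in the table, of which 12 were tested. Igf1r, the receptor of the Igf1 product, was higher in CD9+ than in CX3CR1+ macrophages on day 1, with 105 to 113 CPM against 35.2 to 38.5 CPM (log2 1.56 ± 0.14, adjusted p = 2.6e-06). On day 14 the values were 183 to 223 CPM against 32.8 to 34.4 CPM (log2 2.59 ± 0.15, adjusted p = 1.6e-08), and the difference in change over time was called at 1.03 ± 0.20 (adjusted p = 0.0102). It was highest in neutrophils, at 490 to 626 CPM on the 2 days, and its changes with time were not called in any population. Among the receptors of the Gas6 product, Mertk fell in CX3CR1+ macrophages from between 17.5 and 22.1 CPM to between 1.39 and 1.85 CPM (log2 -3.61 ± 0.62, adjusted p = 0.0014). In CD9+ macrophages it went from between 29.6 and 36.6 CPM to between 12.1 and 20.2 CPM, which was not called. On day 14 Mertk was therefore 3.31 ± 0.63 higher on the log2 scale in CD9+ macrophages (adjusted p = 9.9e-04). Axl was held by both macrophage populations, at 34.6 to 76.8 CPM, and fell in neutrophils (log2 -1.64 ± 0.51, adjusted p = 0.0257). Tyro3 was not tested, with a mean of at most 0.94 CPM.

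For the platelet-derived growth factors, Pdgfrb rose in CD9+ macrophages from 0 and 1.05 CPM to 7.17 and 7.58 CPM (log2 3.95 ± 1.08, adjusted p = 0.0214) and stood at 0.521 and 0.648 CPM in CX3CR1+ macrophages of day 14. The fibroblast markers rose in the same CD9+ libraries, as given above. They also summed to 30.8 to 84.5 CPM in the neutrophil libraries, where Pdgfrb had means of 0.642 CPM on day 1 and 0.120 CPM on day 14. Whether fibroblasts play a part in the Pdgfrb level was not tested. Pdgfra, which also marks fibroblasts, was not tested and had a mean of at most 0.37 CPM. Of the receptors of the Vegfa product, Flt1 rose in CD9+ (log2 1.13 ± 0.28) and CX3CR1+ macrophages (2.10 ± 0.26) and fell in F4/80- cells (-1.22 ± 0.30) and neutrophils (-4.57 ± 0.34). On day 14 Flt1 was highest in CX3CR1+ macrophages, at 26.7 to 30.2 CPM, and lower in CD9+ macrophages (log2 -1.78 ± 0.26). The coreceptor gene Nrp2 was held at 124 to 168 CPM in CD9+ macrophages on both days and fell in the other 3 populations, with log2 changes of -1.06 ± 0.17 in CX3CR1+ macrophages, -1.13 ± 0.19 in F4/80- cells and -1.82 ± 0.26 in neutrophils. The difference in change between the macrophage populations was 1.04 ± 0.24 (adjusted p = 0.0293). Nrp1 rose in neutrophils alone (1.23 ± 0.33), and Kdr had no called change.

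**Figure D5:**
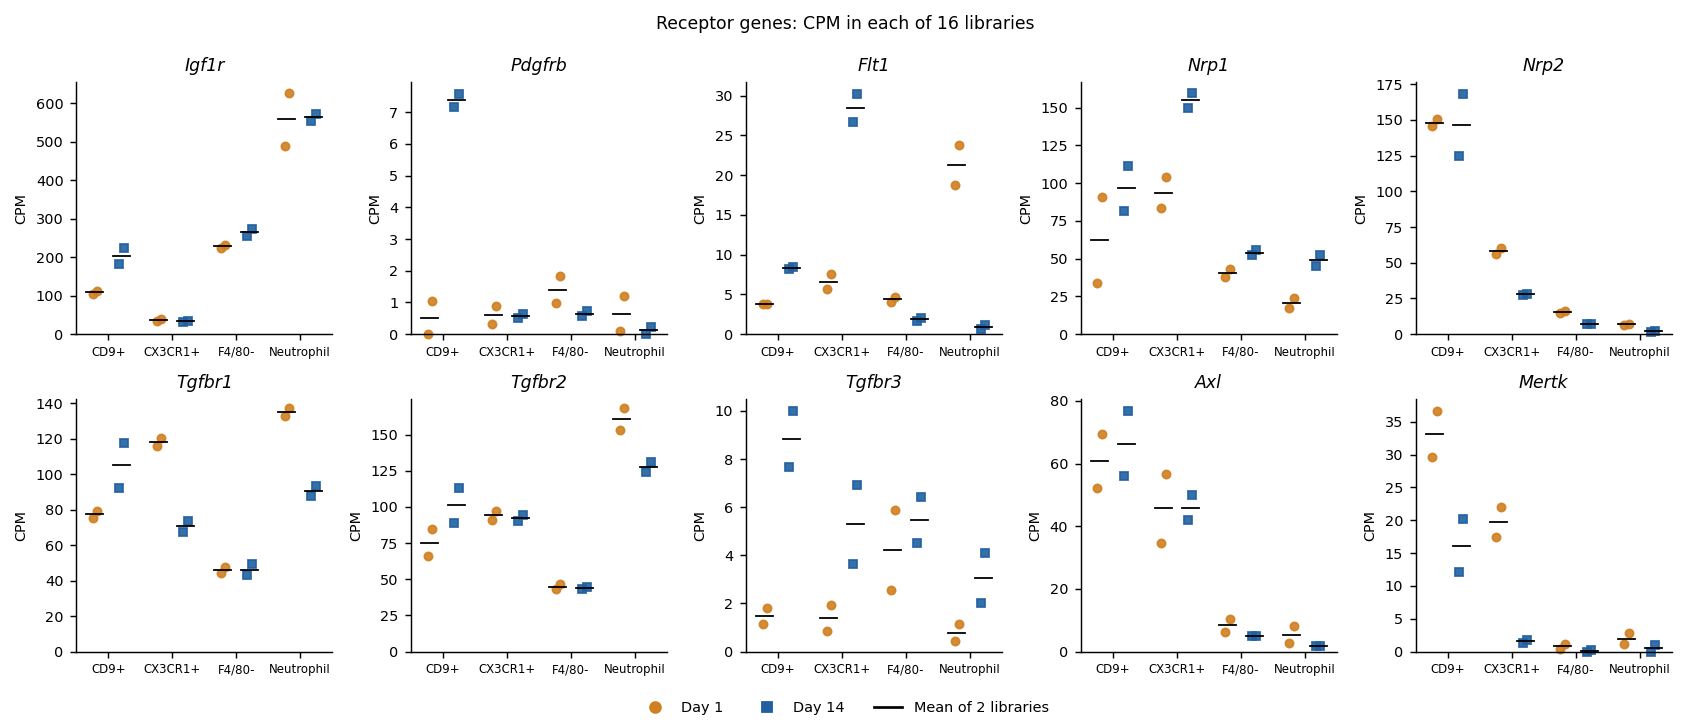
CPM (vertical axes, linear, from 0) of 10 receptor genes in each of the 16 libraries, by sorted population, with day 1 as circles, day 14 as squares and the mean of 2 libraries as a line. Pdgfrb is at 7.17 and 7.58 CPM in the CD9+ libraries of day 14 and at or under 1.83 CPM in every other library, and Mertk falls to 1.39 to 1.85 CPM in CX3CR1+ macrophages.

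The receptors of transforming growth factor beta were present in every population. The coreceptor gene Tgfbr3 rose in CD9+ macrophages (log2 2.53 ± 0.60), CX3CR1+ macrophages (1.92 ± 0.58) and neutrophils (1.98 ± 0.66), and Tgfbr1 and Tgfbr2 had no called change in any population. Tgfbr1 changed differently in the macrophage populations (1.18 ± 0.19, adjusted p = 0.0035), with 75.3 to 79.4 CPM on day 1 and 92.3 to 117 CPM on day 14 in CD9+ cells, and 116 to 121 CPM and then 67.4 to 73.7 CPM in CX3CR1+ cells. Of the EGF receptor family, Egfr did not pass the filter, and Erbb2 and Erbb4 have no row among the genes counted. Erbb3, at means of 1.83 to 8.30 CPM, had no called difference among the time changes and the contrasts of the macrophage populations.

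Of 13 other growth factor and cytokine genes tested, 2 rose and 3 fell in CD9+ macrophages with time (median -0.28), beside 4.75% and 3.48% of all genes. Nrg2, of the neuregulins (log2 1.83 ± 0.36), and the vessel factor Angpt1 (1.78 ± 0.56) rose, while the interleukin 6 family genes Lif (-2.98 ± 0.71) and Osm (-1.13 ± 0.16) and the activin gene Inhba (-1.02 ± 0.30) fell. The 2 Lif libraries of day 1 lay far apart, at 6.06 and 34.7 CPM. Inhba was higher in CD9+ than in CX3CR1+ macrophages on day 1 (3.35 ± 0.33) and on day 14 (4.45 ± 0.41). So was Angpt1, with 0.737 and 4.02 CPM against 0.306 and 0.417 CPM on day 1 and a mean of 8.49 ± 2.1 CPM (SD, n = 2) against 0 and 0.0925 CPM on day 14. In the same comparison, the neuregulin gene Nrg4 was higher on day 14 (2.03 ± 0.56). The lists were written from general knowledge of these pathways, and their counts and medians are descriptions.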

How the data were processed

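The data are bulk RNA-seq of 4 sorted myeloid populations on days 1 and 14 after ACLR, 16 libraries in 8 groups named by the sample labels. According to the methods, the authors prepared SMART-Seq Stranded libraries, trimmed the paired-end reads (Cutadapt), aligned them with STAR to the mm10 genome and deposited raw counts of reads in the exons of Gencode M23 genes. The strand setting of the counting and the filter that left 20200 genes are not given in the sources used here. SMART-Seq amplifies full-length cDNA without molecular identifiers, so counting intervals cover counting error only.

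CPM used TMM factors of the 11998 genes with a group mean of at least 3 CPM in at least 1 group, and 40.6% of genes fell under this filter. CPM per kilobase divides by exonic length from Gencode M21. Tests used edgeR 4.0.16 in R 4.3.3 (glmQLFit and glmQLFTest) with 1 mean for each group, for 4 changes over time, 12 pairs of populations and 3 differences of changes, each adjusted with Benjamini-Hochberg over all tested genes. DESeq2 1.42.0, no filter, a filter in every group, 3 other scalings, a replicate block, no fold threshold and each library left out were the alternatives. On simulated counts with 192 changed genes for CD9+ macrophages over time, all 192 were recovered with 6 false calls among 10864 genes. Changed genes that the filter removed are not in this number. The simulation gave every gene the same spread and planted large changes only. It did not copy the wider spread between the CD9+ libraries of day 1. The recovery thus checks the steps of the fit and does not measure how well changes of the members are found. A group at 0 counts was set at 3 counts in each library for bounds, and ratios with few counts have exact 95% intervals. All 10 members were named in every kind of comparison, with every receptor, and list genes called in CD9+ macrophages over time or between the macrophage populations. Likeness is Pearson's r of group mean log2 CPM (prior count 2), with the 3 highest genes named. Counts over the list of transforming growth factor beta targets are not reported here. The members and lists were chosen with earlier results of these data known. Same-numbered libraries of 1 day were treated as sorted out of 1 common pool, which is inferred from the labels and the methods. The deviations of same-numbered libraries from their group means correlated at 0.0132 to 0.134 on day 1 and 0.0139 to 0.144 on day 14.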

Additional observations from a re-analysis of the deposited data

Results flagged for a closer look

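The change from day 1 to day 14 in CD9+ macrophages differed from the change in another population in 7 cases by the interaction term of edgeR (2 libraries in each group, adjusted over all tested genes). Against CX3CR1+ macrophages the difference was log2 5.40 for Gas6 (adjusted p = 0.0095), where both CD9+ libraries of day 14 lay above both of day 1 and the CX3CR1+ libraries overlapped. Against F4/80- cells the difference was 6.12 for Igf1, 3.72 for Pdgfb and -1.57 for Vegfa (adjusted p = 0.0139, 0.0211 and 0.0112). Against neutrophils it was 4.15 for Igf1 and 5.54 for Gas6 (adjusted p = 0.0071 and 0.0273). For Pdgfc against neutrophils the fitted difference was 14.1 (adjusted p = 0.0217), but 2 of the 4 groups had 0 counts in both libraries, so its size depends on the prior count and is no bound. All 7 share the CD9+ libraries and are not independent of each other.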

How the results depend on the processing

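No called difference of a member turned its direction under any alternative. Of 3534 member values under the alternatives, 40 changed sign, and none of these was called in the fit used or under the alternative. Pdgfa in CD9+ against CX3CR1+ macrophages on day 1 turned to log2 -0.010 without a filter, -0.24 by library size alone, -0.039 by the upper quartile and -0.13 with the replicate block. By library size alone Igf1 in CX3CR1+ macrophages against neutrophils on day 1 turned to 0.12. Tgfb1 in F4/80- cells against neutrophils on day 1 turned to 0.51 by library size alone (adjusted p = 0.0082, under the fold threshold), 0.21 by the upper quartile and 0.20 with a filter in every group. With a filter in every group, Vegfa and Tgfb1 alone remain tested, so the number of members called fell by construction. For change over time it was 1 in CD9+ and 1 in CX3CR1+ macrophages (6 and 2 with the filter used). For CD9+ against CX3CR1+, F4/80- and neutrophil cells it was 1, 0 and 1 on day 14 (6, 5 and 7), and against the last 2 it was 1 and 1 on day 1 (7 and 3). For CX3CR1+ against F4/80- cells and neutrophils it was 1 and 2 on day 1 (4 and 6) and 0 and 2 on day 14 (2 and 4), and for F4/80- cells against neutrophils 1 on day 1 (3). For the 3 differences of changes it was 0, 1 and 0 (1, 3 and 3). Neutrophils over time had 2 calls in place of 1 without a filter or without the fold threshold. Without that threshold CD9+ macrophages against neutrophils on day 1 had 5 in place of 3, and CX3CR1+ against F4/80- cells on day 14 had 4 in place of 2. DESeq2 gave 2 in place of 1 for CD9+ against CX3CR1+ macrophages on day 1 and 3 in place of 1 for the difference of their changes. Scaling by library size alone gave 6 in place of 3 for CD9+ macrophages against neutrophils on day 1, where the upper quartile gave 5, and 2 in place of 1 for the difference of changes against CX3CR1+ macrophages. Apart from the filter in every group and the fold threshold, whose construction changes the count, the cause was not tested.

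As each of the 16 libraries was left out in turn, the lone library left in a group being assumed to vary like the other groups, the members called ranged from 5 to 6 for CD9+ and from 1 to 2 for CX3CR1+ macrophages over time, stayed at 0 for F4/80- cells and at 1 for neutrophils. On day 1 they ranged from 1 to 2, 2 to 7 and 2 to 5 for CD9+ against CX3CR1+, F4/80- and neutrophil cells, from 1 to 4 and 3 to 6 for CX3CR1+ against F4/80- cells and neutrophils, and from 2 to 3 for F4/80- cells against neutrophils. On day 14 the same 6 ranges were 4 to 6, 3 to 5, 6 to 7, 2 to 2, 4 to 5 and 2 to 3. For the differences of changes against CX3CR1+, F4/80- and neutrophil cells they were 0 to 3, 0 to 5 and 0 to 4.

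Leaving out libraries turned the sign of further differences that were not called, with these log2 ranges. For Gas6 this was so over time in CX3CR1+ cells (-1.82 to 0.010), over time in neutrophil cells (-4.56 to 0.32), in CD9+ against CX3CR1+ cells on day 1 (-0.37 to 0.85), in CX3CR1+ against F4/80- cells on day 14 (-0.15 to 1.69) and in F4/80- against neutrophil cells on day 14 (-0.31 to 4.504). For Pdgfa this was so over time in F4/80- cells (-5.23 to 0.41), in CD9+ against CX3CR1+ cells on day 1 (-0.82 to 0.60), in F4/80- against neutrophil cells on day 1 (-1.87 to 0.13), in CX3CR1+ against F4/80- cells on day 14 (-1.23 to 5.50), in CX3CR1+ against neutrophil cells on day 14 (-0.23 to 5.53) and in F4/80- against neutrophil cells on day 14 (-3.72 to 4.73). For Areg this was so over time in F4/80- cells (-1.26 to 0.21), in CD9+ against F4/80- cells on day 14 (-0.87 to 0.60) and in CX3CR1+ against F4/80- cells on day 14 (-0.22 to 1.24). For Igf1 this was so over time in neutrophil cells (-0.90 to 0.31), in CX3CR1+ against F4/80- cells on day 1 (-0.28 to 1.82) and in CX3CR1+ against neutrophil cells on day 1 (-1.56 to 0.31). For Pdgfb this was so over time in neutrophil cells (-0.016 to 0.96), in CD9+ against CX3CR1+ cells on day 1 (-0.94 to 0.45) and in F4/80- against neutrophil cells on day 14 (-0.32 to 0.66). For Tgfb1 this was so in CD9+ against CX3CR1+ cells on day 1 (-0.31 to 0.072), in F4/80- against neutrophil cells on day 1 (-0.33 to 0.17) and in the change of CD9+ macrophages less that of neutrophils (-0.18 to 0.32). For Vegfa this was so in the change of CD9+ macrophages less that of neutrophils (-0.51 to 0.16). Where a group's remaining library had 0 counts, the fitted value depends on the prior count.

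With a replicate block in the fit, set by day on the inferred pairing of libraries, 150 of 152 member values stayed on their side of the threshold, called or not. The 2 calls lost were those of Pdgfc in CX3CR1+ and F4/80- cells against neutrophils on day 1 (adjusted p = 0.0562 and 0.0634). Over all genes, the number of calls moved by over 1.5 times in 19 of 19 comparisons with the filter in every group (0.325 to 0.535 times), in 10 without the fold threshold and in 2 with DESeq2, whose highest ratio was 1.87. As each library was left out, it moved that far in 27 of 304 cases, from 0.0739 times (15 in place of 203 genes) without the first F4/80- library of day 14 to 4.71 times (956) without the first CD9+ library of day 1, both for the change of CD9+ macrophages less that of F4/80- cells. In CD9+ macrophages over time the 988 calls became 1734 without the first library of day 1 and 571 without the first of day 14, and the 390 in F4/80- cells fell to between 174 and 257 without any 1 of their own 4 libraries. The shares of all genes given beside the members move with these counts. Scaling by library size alone shifted the median of all genes by 0.19 on the log2 scale in CD9+ macrophages over time and by up to 0.61 against neutrophils. With 2 libraries a group and 3 counts standing for up to 0.360 CPM, differences of Hbegf were not detectable at this depth, and those of Ereg and Pdgfc rest on few counts.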
